A study of Mus musculus with 9 samples.

Results

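The genes described here encode the enzymes that break glucose down to lactate (glycolysis), the enzymes of the pentose phosphate pathway, the glucose and lactate transporters that serve them, and Pdk1 and Pdha1, which act on the conversion of pyruvate to acetyl-CoA in mitochondria. The list held 34 genes, chosen by enzyme step, and 30 of them had an expression value among the 21020 named genes of the arrays. No value was matched for Aldoa, Eno1, Slc16a3 and G6pdx, so the main aldolase, enolase and lactate exporter genes and the first oxidative pentose phosphate enzyme are not analysed here.

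The measurements came from regulatory T cells (Tregs), a CD4+ lineage that depends on Foxp3 and keeps other immune cells in check, sorted as CD4+ GFP+ lymphocytes from mice that express a green fluorescent protein with Foxp3 (Foxp3EGFP on the C57BL/6 background, 8 to 12 weeks of age). The 9 arrays fell into 3 groups of 3, all of the same genotype and strain. Control lung Tregs came from uninjured mice, while resolving lung Tregs and resolving splenic Tregs came from mice with lung injury induced by 3 mg/kg of lipopolysaccharide (LPS, O55:B5 from Escherichia coli) placed in the trachea. The sources used here give no splenic Tregs from uninjured mice, so a difference between control lung and resolving spleen joins tissue and injury. The time after LPS and the number of animals behind each array are not given in the sources used here, so the p-values speak for the scatter among these arrays alone, and that scatter could be technical.

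In glycolysis, glucose enters through the transporters, is phosphorylated by hexokinase, is committed to breakdown by phosphofructokinase, is split into triose phosphates, and is carried to pyruvate with a yield of ATP. Pyruvate is either reduced to lactate or oxidised in mitochondria, where pyruvate dehydrogenase turns it into acetyl-CoA unless its kinases hold the enzyme inactive. The pentose phosphate pathway branches off at glucose 6-phosphate and gives NADPH, which supplies antioxidant enzymes and lipid synthesis, and ribose for nucleotides. Activated and dividing T cells raise glucose uptake and glycolysis through mTOR, Myc and HIF-1α, and Foxp3 is known to restrain this program in Tregs.

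Each value is a log2 array signal, so a difference of 1 is a factor of 2 in signal, and levels of different genes cannot be compared because probe sets respond differently. The dim level of an array was set at the 95th percentile of the signals of 915 olfactory receptor genes and lay between 3.32 and 3.52. A gene was called when limma, fitted to all 21020 genes in all 9 arrays, gave a Benjamini-Hochberg adjusted p under 0.05. Of the 30 members, 24 read above the dim level in all 9 arrays, 5 (Hk2, Hk3, Pfkm, Pfkfb4 and Eno2) in some, and Pgam1 in none.

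The arrays carried the Treg identity of their labels. Foxp3 read 10.67 ± 0.04 in control lung, 10.59 ± 0.16 in resolving lung and 10.69 ± 0.05 in resolving spleen (SD, n = 3 each), and all 6 measured Treg markers of 7 listed were above the dim level in every array. Transcripts of other cell types were present too, and they were unevenly spread. The first resolving lung array stood apart. Its mean over 11 macrophage markers was 6.54 against 3.68 to 5.08 in the other 8 arrays, the sum of their linear signals was 2460 against 235 to 887, and its mean over 6 fibroblast markers was 4.89 against 2.14 to 3.41. Epithelial markers were highest in control lung (means of 5.91 to 6.99), B cell markers in resolving spleen (5.72 to 6.95), and erythroid markers in resolving spleen (6.23 to 7.91) and in the second resolving lung array (7.14). In such bulk samples, fewer cells of a type and less RNA per cell cannot be told apart.

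Between resolving and control lung Tregs, no member passed the test in either direction, where 0.457% of all genes did. Without adjustment, 8 members were higher at a p under 0.05 and 0 were lower, beside 7.61% and 6.39% of all genes. By value alone, 23 of 30 members were higher in resolving lung, where 52.5% of all genes were, with a median log2 difference of 0.16 against 0.0086 over all genes. For 8 members (Pgd, Rpe, Pkm, Aldoc, Pdha1, Ldha, Hk1 and Pgls) every resolving lung array read above every control array, a pattern that 8.79% of all genes showed, and 15.3% of the 8936 genes that were above the dim level in all arrays. Of the 24 members in that brighter set 20 were higher by value, beside 55.7% of the set. In the opposite direction it was 0 members, beside 7.5% and 12.1% of these sets of genes.

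The first resolving lung array weighed on that picture. It was the highest of its group for 24 of the 30 members, while the third was the lowest for 19. The median difference from the control lung mean was 0.25 in the first array, 0.087 in the second and 0.048 in the third. Without the first array the members' median difference between resolving and control lung was 0.057, with 20 of 30 higher. In that fit 6 members were higher and 1 lower at an unadjusted p under 0.05, beside 2459 of all 21020 genes in either direction. The macrophage and fibroblast markers were highest in that same array, and their part in the result was not tested.

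**Figure D1:**
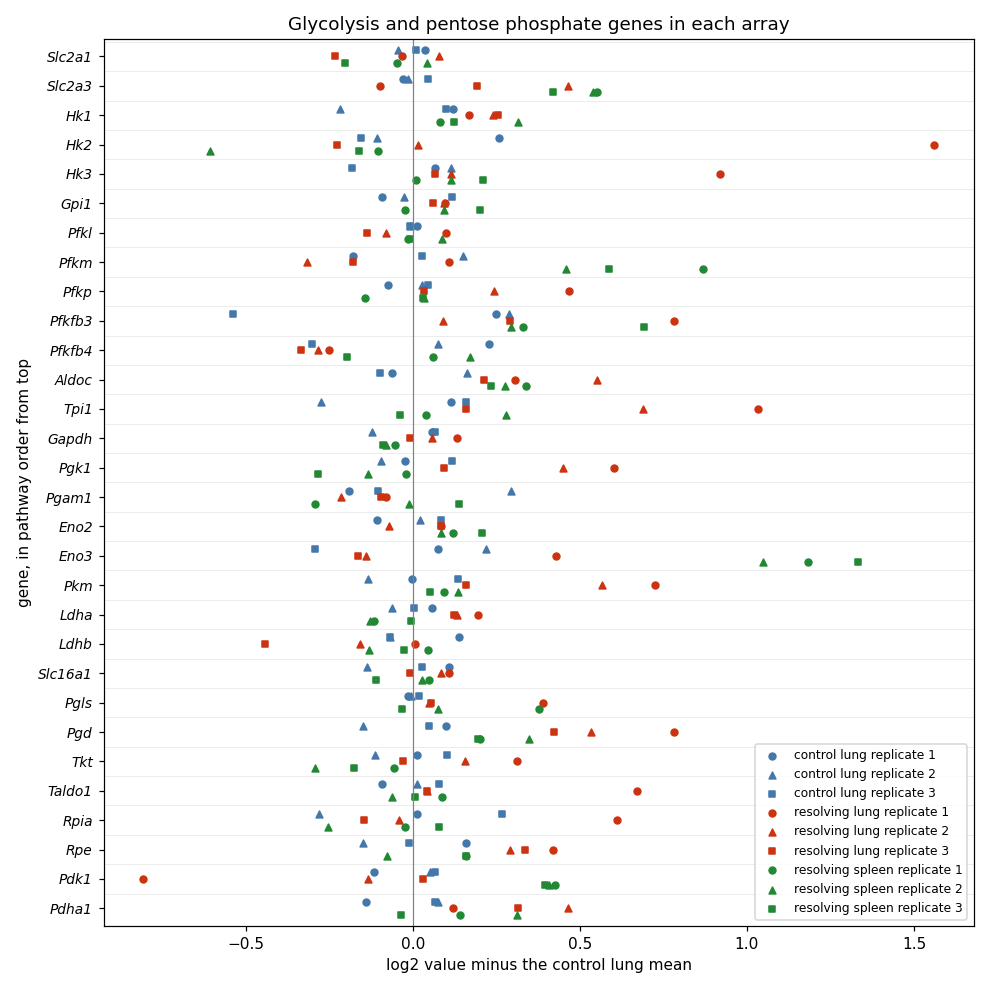
Log2 signal of each of the 30 measured genes minus its mean in control lung, with genes in pathway order from top to bottom, colours for the 3 groups and marker shapes for the 3 replicates. Eno3 and Pfkm have all 3 spleen arrays to the right of every lung array, and the first resolving lung array (red circle) is the rightmost of its group for 24 genes.

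Between resolving lung and resolving spleen, 2 members passed the test, both lower in lung, beside 2.82% of all genes lower and 2.65% higher. By value, 19 of 30 members were higher in resolving lung, beside 52.8% of all genes, and the median log2 difference was 0.073. Without adjustment, 8 members were higher and 4 lower at a p under 0.05, beside 8.2% and 10.6% of all genes. Groups did not overlap for 7 members higher in lung (Pgk1, Ldha, Pgd, Tkt and Pkm among them), beside 11.3% of all genes, and for 4 lower in lung, beside 11.8%. Of the 24 members in the brighter set, 7 were higher and 2 lower without overlap, beside 15.6% and 21.1% of that set. By value, 17 of these 24 members were higher, beside 44% of that set. Between control lung and resolving spleen, the same 2 members passed the test, again lower in lung, where 3.49% of all genes were called lower and 2.67% higher. By value, 11 of 30 were higher in control lung than in spleen, beside 51% of all genes, with a median of -0.086. In the brighter set it was 9 of 24 members, beside 40% of that set, whose own median was -0.062. Without adjustment, 0 were higher and 4 lower at a p under 0.05, beside 7.55% and 11.3% of all genes. Without overlap, 7 members were lower, beside 13.8% of all genes, and 0 were higher, beside 11.6%. In the brighter set 6 of 24 members were lower without overlap, beside 25.9% of that set, and 0 were higher, beside 16.8%. The 3 comparisons share groups, so their values are not independent of each other.

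**Figure D2:**
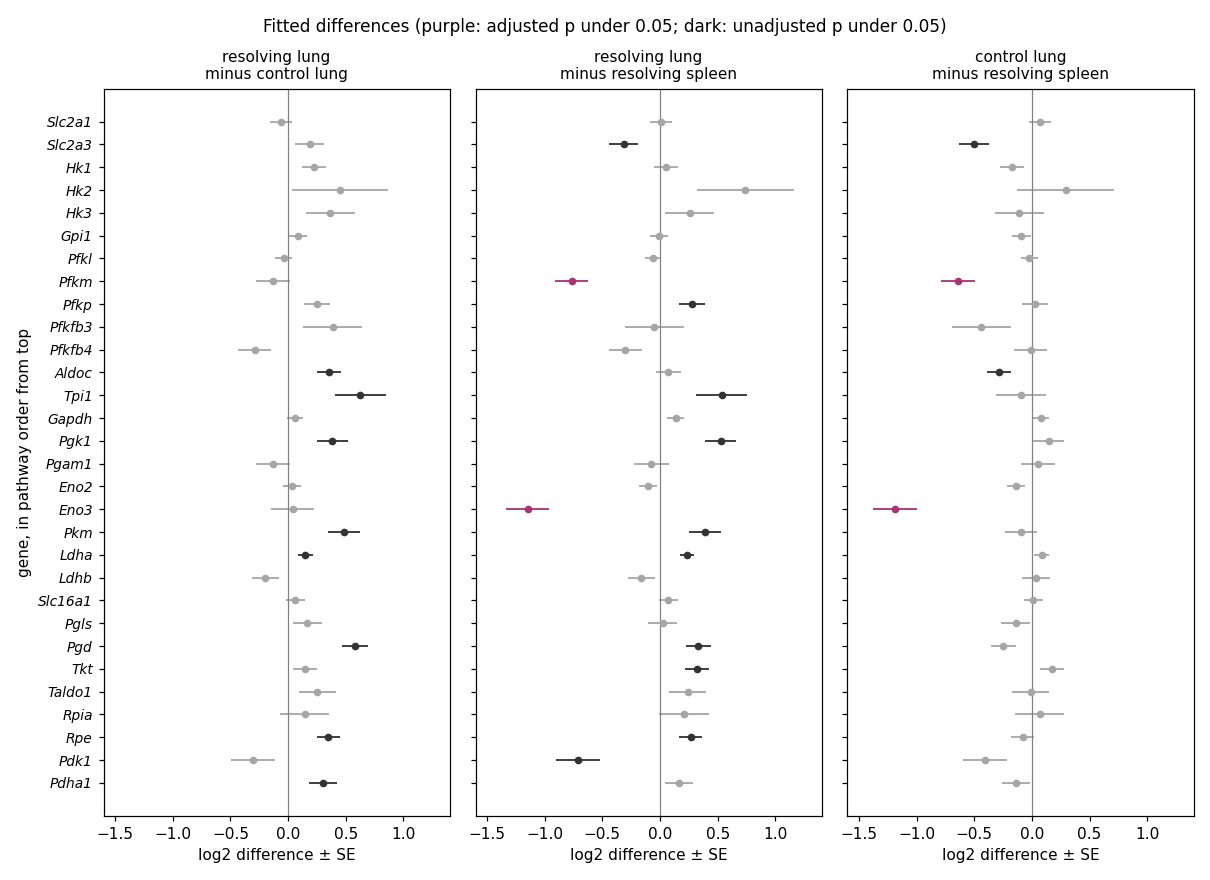
Fitted log2 difference of each measured gene with its standard error (horizontal bars) in the 3 comparisons, purple for an adjusted p under 0.05 and dark for an unadjusted p under 0.05. Only Eno3 and Pfkm are purple, in both comparisons with spleen, and no gene is purple between the lung groups.

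The 2 called members were both muscle-type isoforms. Eno3 encodes β-enolase, the enolase known from muscle, which forms phosphoenolpyruvate. Eno3 read 5.85, 6.00 and 5.48 in control lung, 6.21, 5.64 and 5.61 in resolving lung, and 6.96, 6.83 and 7.11 in resolving spleen. All 3 spleen arrays lay above all 6 lung arrays, which overlapped each other. Eno3 was lower by 1.15 (log2 difference -1.15, SE 0.19; 2.21-fold) in resolving lung than in spleen, with a limma adjusted p of 0.0125. In control lung Eno3 was 2.28-fold lower than in spleen (log2 difference -1.19, SE 0.19, limma adjusted p = 0.0096), and between the lung groups the difference was 0.04 (SE 0.19). The call against resolving lung was lost without the first spleen array (limma adjusted p = 0.0501) and without the third (limma adjusted p = 0.0516), at log2 differences of -1.15 and -1.07. The call against control lung was kept in 18 of 18 alternative settings.

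Pfkm encodes the muscle subunit of phosphofructokinase, the enzyme of the committed step. Pfkm read 3.35, 3.68 and 3.56 in control lung, 3.64, 3.21 and 3.35 in resolving lung, and 4.39, 3.99 and 4.11 in resolving spleen. It was above the dim level in all 3 spleen arrays, in 2 control lung arrays and in 1 resolving lung array, so the lung values sat at the lower end of what the arrays measure. Against spleen, the log2 difference was -0.77 in resolving lung (SE 0.15, limma adjusted p = 0.0226) and -0.64 in control lung (SE 0.15, limma adjusted p = 0.0405), and no fold is given because signals near the dim level do not measure one. Both calls depended on single arrays. The one against resolving lung was lost without the second or the third resolving lung array or the first or the third spleen array (limma adjusted p of 0.0679, 0.0563, 0.0754 and 0.0669), at log2 differences of -0.79 to -0.65. The one against control lung was lost without any 1 of the 3 control lung arrays, the third resolving lung array or any 1 of the 3 spleen arrays (limma adjusted p of 0.0554 to 0.128), at log2 differences of -0.73 to -0.52.

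Spleen arrays also carried more erythroid and B cell transcripts, whose part in the result was not tested. The erythroid markers Alas2 and Slc4a1 had summed linear signals of 10.3 to 23.1 in control lung, 22.5, 375 and 42.4 in resolving lung, and 263, 494 and 151 in resolving spleen. The second resolving lung array, with an erythroid mean of 7.14, read 5.64 for Eno3 and 3.21 for Pfkm. The 7 B cell markers had sums of 431 to 468 in control lung, 252 to 316 in resolving lung and 558, 1244 and 783 in resolving spleen, and all 7 were lower by value in resolving lung than in spleen, 4 of them past the test. The second spleen array, with the highest erythroid and B cell sums of its group, read 6.83 for Eno3 and 3.99 for Pfkm. These are values of 1 array each, and no relation between the markers and the 2 genes was tested.

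The promoter windows of these genes, 250 bases before to 50 after the start, are shown because hypoxia-inducible factors, known activators of many glycolytic genes, bind at the core letters ACGTG or GCGTG. Sequences are from RefSeq, build GRCm38.p6, and each core on either strand is in capitals. The Eno3 window lies on the forward strand at chr11:70656926-70657225. For Pfkm, 4 annotated starts had windows, and the array value does not tell which start was used. The 2 Pfkm windows with the most cores are printed. The first window is at chr15:98092339-98092638 and the second at chr15:98108221-98108520, both on the forward strand.
Eno3: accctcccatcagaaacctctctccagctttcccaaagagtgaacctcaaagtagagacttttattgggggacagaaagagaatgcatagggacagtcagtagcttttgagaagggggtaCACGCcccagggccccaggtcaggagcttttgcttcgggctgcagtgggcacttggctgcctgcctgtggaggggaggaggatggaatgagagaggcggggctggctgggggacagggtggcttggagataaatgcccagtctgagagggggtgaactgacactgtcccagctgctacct
Pfkm, first start: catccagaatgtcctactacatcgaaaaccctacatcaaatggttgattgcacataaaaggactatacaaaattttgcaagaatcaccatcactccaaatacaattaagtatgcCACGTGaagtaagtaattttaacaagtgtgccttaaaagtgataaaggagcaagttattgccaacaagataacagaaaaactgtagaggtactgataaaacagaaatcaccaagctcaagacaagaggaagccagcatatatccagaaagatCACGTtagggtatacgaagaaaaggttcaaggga
Pfkm, second start: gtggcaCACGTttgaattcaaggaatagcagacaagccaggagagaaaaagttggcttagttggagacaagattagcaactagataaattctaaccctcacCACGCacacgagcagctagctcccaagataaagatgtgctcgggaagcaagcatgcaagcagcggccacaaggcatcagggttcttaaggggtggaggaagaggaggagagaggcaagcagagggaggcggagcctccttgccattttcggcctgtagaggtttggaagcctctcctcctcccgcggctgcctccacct
The Eno3 window held 1 core. The first Pfkm window held 3, the second 2, the third 1 and the fourth 0. A CACGTG run counts as 2 cores, 1 on each strand. Searched on both strands, ACGTG stood in 19 of 47 windows of the 33 members with a window (40.4%) and in 19.6% of all 32851 windows, and GCGTG in 28 of 47 (59.6%) against 32.4%. Either core stood in 78.7% of the members' windows and 43.8% of all windows. The 6-letter run CACGTG, which contains ACGTG on both strands, stood in 8.51% and 7.15%. These are matches of letters in windows whose base composition differs between genes, and they say nothing of binding.

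The glucose transporter Slc2a1 (GLUT1), the main transporter of activated T cells, read 8.48, 8.40 and 8.45 in control lung, 8.41, 8.52 and 8.21 in resolving lung, and 8.40, 8.49 and 8.24 in resolving spleen. The 3 groups overlapped. Slc2a3 (GLUT3), a high-affinity transporter, read 7.53, 7.54 and 7.60 in control lung, 7.46, 8.02 and 7.75 in resolving lung, and 8.11, 8.10 and 7.98 in resolving spleen. Every spleen array lay above every control lung array, while the resolving lung arrays spread from below the control lung arrays to within the spleen range. The difference of control lung from spleen, -0.50 (SE 0.13), did not pass the test (limma adjusted p = 0.0589), and it passed without the first resolving lung array (0.0123) or without the second (0.0228).

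Hexokinases trap glucose in the cell by phosphorylating it. The ubiquitous Hk1 read 5.95, 5.61 and 5.93 in control lung, 6.00, 6.07 and 6.08 in resolving lung and 5.91, 6.14 and 5.95 in resolving spleen, and its resolving lung arrays were above all control lung arrays by a small margin (log2 difference 0.22, limma adjusted p = 0.393). Hk2, the isoform that activated cells induce, read 4.26, 3.90 and 3.85 in control lung, 5.56, 4.02 and 3.77 in resolving lung, and 3.90, 3.39 and 3.84 in resolving spleen. A single array, the first of resolving lung, stood above all others, and the group's SD of 0.97 was the largest of any member. The difference of Hk2 between the lung groups was 0.45 with an SE of 0.42 (limma adjusted p = 0.687).

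Hk3, a hexokinase known from myeloid cells, read 3.40 in the first resolving lung array and 2.30 to 2.69 in the other 8, and only the first value was above its array's dim level. Among macrophage markers, Marco likewise exceeded the dim level only in that array (5.08 against 2.16 to 3.03), 10 of the 11 measured macrophage markers were above it there against 5 to 8 elsewhere, and Siglecf was below it in all 9 arrays. Of the fibroblast markers, 5 of 6 were above the dim level in the first resolving lung array, 3 in the first control lung array and 0 in the other 7. Their part in the Hk2 and Hk3 values was not tested. The next enzyme, Gpi1 (glucose 6-phosphate isomerase), read 10.53 to 10.82 over all 9 arrays.

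**Figure D3:**
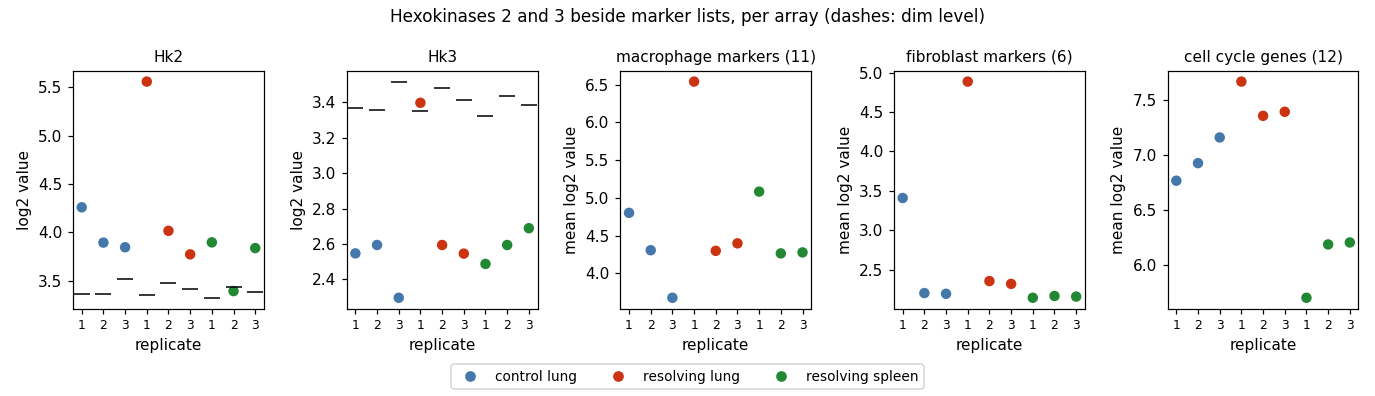
Log2 signal of Hk2 and Hk3 with each array's dim level (dashes), beside the mean log2 signal of 11 macrophage markers, 6 fibroblast markers and 12 cell cycle genes, for 3 replicates of each group. The first resolving lung array is the highest in all 5 panels, and the spleen arrays are the lowest for the cell cycle genes.

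Phosphofructokinase is a tetramer of subunits encoded by Pfkl (liver type), Pfkm and Pfkp (platelet type). Pfkl read 6.37, 6.34 and 6.34 in control lung, 6.45, 6.27 and 6.22 in resolving lung, and 6.34, 6.44 and 6.34 in resolving spleen, with overlap of all groups. Pfkp read 8.50, 8.60 and 8.62 in control lung, 9.04, 8.81 and 8.60 in resolving lung, and 8.43, 8.60 and 8.60 in resolving spleen. Its resolving lung values ran from the level of the other groups upward. The log2 difference of resolving lung was 0.25 from control lung (limma adjusted p = 0.367) and 0.27 from spleen (limma adjusted p = 0.227).

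Pfkfb3 and Pfkfb4 make fructose 2,6-bisphosphate, the strongest activator of phosphofructokinase. Pfkfb3 read 5.63, 5.67 and 4.84 in control lung, 6.16, 5.47 and 5.67 in resolving lung, and 5.71, 5.67 and 6.07 in resolving spleen. Its resolving lung arrays overlapped both other groups. Every spleen array was above every control lung array, at the margin by 5.674 against 5.668 (log2 difference -0.44, SE 0.26, limma adjusted p = 0.425). Pfkfb4 read 3.51, 3.36 and 2.98 in control lung, 3.03, 3.00 and 2.95 in resolving lung, and 3.34, 3.45 and 3.09 in resolving spleen. It was above the dim level in 1 control lung array, 0 resolving lung arrays and 2 spleen arrays, so no fold is given.

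From the aldolase step to pyruvate kinase, several members read highest in resolving lung without passing the test. Aldoc (aldolase C) read 4.85, 5.07 and 4.81 in control lung, 5.22, 5.46 and 5.13 in resolving lung, and 5.25, 5.19 and 5.15 in resolving spleen, so that both groups from injured mice lay above control lung. Its log2 difference between the lung groups was 0.36 (SE 0.10, limma adjusted p = 0.182). Tpi1 (triose phosphate isomerase) read 7.70, 7.31 and 7.74 in control lung, 8.62, 8.27 and 7.74 in resolving lung, and 7.62, 7.86 and 7.55 in resolving spleen. The third resolving lung array read at the level of the other groups, while the other two stood above all arrays outside the group. The difference from control lung was 0.63 (SE 0.22, limma adjusted p = 0.242) and that from spleen 0.53 (limma adjusted p = 0.232). Without the third resolving lung array, the difference from spleen was 0.77 and passed the test (limma adjusted p = 0.0497).

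Gapdh (glyceraldehyde 3-phosphate dehydrogenase) read 11.38 to 11.64 over all 9 arrays. Pgk1 (phosphoglycerate kinase, the first ATP-yielding step) read 9.03, 8.96 and 9.17 in control lung, 9.65, 9.50 and 9.15 in resolving lung, and 9.03, 8.92 and 8.77 in resolving spleen. Every resolving lung array was above every spleen array, and the first and second were also above every control array. Pgk1 differed from spleen by 0.53 (SE 0.13) with a limma adjusted p of 0.0634, and from control lung by 0.38 (SE 0.13) with a limma adjusted p of 0.25. Without the third resolving lung array, the difference from spleen was 0.67 and passed the test (limma adjusted p = 0.0180).

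The Pgk1 window is printed as a reference, because the Pgk1 promoter is widely used to drive transgenes and holds cores of the hypoxia element. It lies on the forward strand at chrX:106186850-106187149, with cores in capitals as above.
Pgk1: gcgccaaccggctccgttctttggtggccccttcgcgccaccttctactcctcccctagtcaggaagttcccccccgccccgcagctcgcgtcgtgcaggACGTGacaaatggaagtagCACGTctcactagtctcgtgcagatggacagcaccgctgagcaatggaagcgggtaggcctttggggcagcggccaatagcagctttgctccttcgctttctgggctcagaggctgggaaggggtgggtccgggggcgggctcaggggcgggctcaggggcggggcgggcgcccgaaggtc
It held 2 cores, both ACGTG.

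Pgam1 (phosphoglycerate mutase) read 2.51 to 3.10 and was below the dim level in all 9 arrays, so its row gives no measured level. Eno2, the neuronal-type enolase, read 3.36 to 3.68, near the dim level in every group, while Eno3 separated spleen from lung. Pkm (pyruvate kinase of non-liver tissues, its splice forms not told apart by a gene-level value) read 9.71, 9.57 and 9.85 in control lung, 10.43, 10.28 and 9.87 in resolving lung, and 9.80, 9.85 and 9.76 in resolving spleen. The 3 resolving lung arrays were above all other arrays, the third by a narrow margin. The log2 difference was 0.48 from control lung (SE 0.14, limma adjusted p = 0.173) and 0.39 from spleen (limma adjusted p = 0.169). Without the third resolving lung array, Pkm passed the test in both comparisons, with 0.65 from control lung (limma adjusted p = 0.0440) and 0.55 from spleen (limma adjusted p = 0.0243). Without the first, its difference between the lung groups was 0.36.

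Lactate dehydrogenase converts pyruvate to lactate and back. The A subunit gene Ldha read 7.08, 6.96 and 7.03 in control lung, 7.22, 7.15 and 7.15 in resolving lung, and 6.91, 6.89 and 7.02 in resolving spleen. The resolving lung arrays were above all 6 others, by a small margin. The log2 difference was 0.15 from control lung (SE 0.06, limma adjusted p = 0.339) and 0.23 from spleen (SE 0.06, limma adjusted p = 0.0757). Ldhb, the B subunit gene, read 5.51, 5.30 and 5.30 in control lung, 5.38, 5.21 and 4.93 in resolving lung, and 5.42, 5.24 and 5.34 in resolving spleen, and its groups overlapped. Slc16a1 (MCT1), which carries lactate with a proton, read 7.02 to 7.27 over all 9 arrays.

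The first of the Ldha windows is printed because it held 7 cores, 5 of them ACGTG and 2 GCGTG. Each of its 2 CACGTG runs counts as 2 cores, 1 on each strand. The window lies on the forward strand at chr7:46845554-46845853.
Ldha, first start: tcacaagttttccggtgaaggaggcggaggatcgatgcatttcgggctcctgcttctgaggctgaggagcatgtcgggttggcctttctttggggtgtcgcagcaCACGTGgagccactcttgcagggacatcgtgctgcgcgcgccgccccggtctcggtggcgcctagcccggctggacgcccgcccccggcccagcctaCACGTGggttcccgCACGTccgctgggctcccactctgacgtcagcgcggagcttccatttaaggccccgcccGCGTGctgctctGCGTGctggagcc
A second Ldha window held 2 cores. The Ldha value itself differed by 0.15 between the lung groups.

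**Figure D4:**
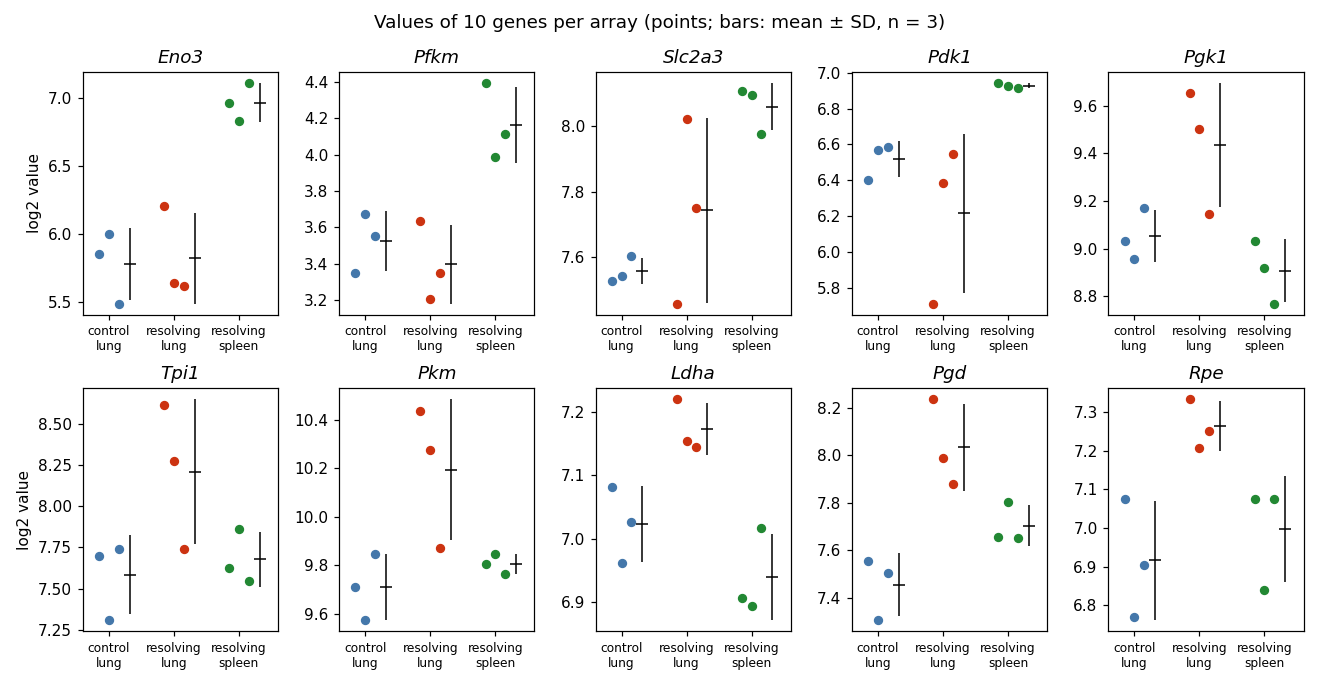
Log2 signal of 10 genes in each array (points, 3 replicates from left to right in each group) with the mean and SD of each group (bars, n = 3). Eno3 and Pfkm are higher in the 3 spleen arrays than in all lung arrays, and Pgd, Pkm, Rpe and Ldha are highest in the 3 resolving lung arrays, although none of these 4 passed the test.

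In the pentose phosphate pathway, all 6 measured members of 7 were higher by value in resolving lung than in control lung. Of 9 further pentose phosphate and ribose genes, described below, 3 were higher and 6 lower by value (median -0.19), with 3 of the 9 dim in all arrays. The log2 differences of the 6 members were 0.14 to 0.58 with a median of 0.21, and none passed the test. Pgd, 6-phosphogluconate dehydrogenase, the enzyme that releases NADPH and CO2 in the oxidative branch, came nearest. Pgd read 7.56, 7.31 and 7.50 in control lung, 8.24, 7.99 and 7.88 in resolving lung, and 7.66, 7.80 and 7.65 in resolving spleen. The 3 groups did not overlap, in the order control lung, spleen, resolving lung. Resolving lung was 1.49-fold above control lung (log2 difference 0.58, SE 0.11) with a limma adjusted p of 0.0662, and it was above spleen by 0.33 (limma adjusted p = 0.137). Without the first resolving lung array, the difference from control lung was 0.48 (limma adjusted p = 0.102). With each array centred on its own median, Pgd passed the test (0.56, limma adjusted p = 0.0487), and it also passed when dim genes were left out (0.58, limma adjusted p = 0.0411).

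Rpe, ribulose 5-phosphate epimerase of the non-oxidative branch, read 7.08, 6.77 and 6.90 in control lung, 7.33, 7.21 and 7.25 in resolving lung, and 7.08, 6.84 and 7.08 in resolving spleen. Its resolving lung arrays were above all others, with a log2 difference of 0.35 from control lung (SE 0.10, limma adjusted p = 0.173). Tkt (transketolase) read 7.93, 7.80 and 8.02 in control lung, 8.23, 8.08 and 7.89 in resolving lung, and 7.86, 7.63 and 7.74 in resolving spleen. Resolving lung lay above spleen without overlap, by 0.32 (limma adjusted p = 0.138), and overlapped control lung.

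All 6 measured members of the pathway, Pgd, Rpe and Tkt included, had their highest value of the 9 arrays in the first resolving lung array. Pgls, the lactonase of the oxidative branch, read 5.13 there and 4.70 to 5.11 in the other arrays. Taldo1 (transaldolase) read 7.66 there and 6.90 to 7.08 elsewhere. Rpia (ribose 5-phosphate isomerase) read 6.34 there and 5.45 to 6.00 elsewhere. Macrophage and fibroblast markers were highest in the same array, and their part in the values of these 6 genes was not tested.

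At the conversion of pyruvate to acetyl-CoA in mitochondria, Pdk1, a kinase that inactivates pyruvate dehydrogenase, read 6.40, 6.57 and 6.58 in control lung, 5.71, 6.38 and 6.55 in resolving lung, and 6.94, 6.92 and 6.91 in resolving spleen. All spleen arrays were above all lung arrays, and the lowest value was again that of the first resolving lung array. Pdk1 differed between resolving lung and spleen by -0.71 (SE 0.19, limma adjusted p = 0.0721), and without the first resolving lung array by -0.46, which passed the test (limma adjusted p = 0.0245). It also passed without the third resolving lung array (-0.88, limma adjusted p = 0.0379). Between control lung and spleen the difference was -0.41 (SE 0.19, limma adjusted p = 0.296), and it passed without the first resolving lung array (limma adjusted p = 0.0170). Pdha1, the E1 alpha subunit of pyruvate dehydrogenase, read 7.77, 7.99 and 7.98 in control lung, 8.03, 8.38 and 8.23 in resolving lung, and 8.05, 8.22 and 7.88 in resolving spleen. Resolving lung lay above control lung without overlap, by 0.30 (SE 0.12, limma adjusted p = 0.312).

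Isoforms that catalyse the same step were compared by the difference between their log2 values within each array. For 9 pairs with both genes measured, the change of this difference was tested in the 3 comparisons by a two-sided exact permutation test, which with 3 arrays against 3 cannot go below 0.1. Of 27 tests, 12 reached that smallest p (Benjamini-Hochberg adjusted p = 0.225 each). A pair reaches it only where the compared groups do not overlap, so leaving out 1 array could not change the direction of these 12. Pfkl minus Pfkm was 2.82, 3.06 and 2.87 in resolving lung, 3.02, 2.67 and 2.79 in control lung, and 1.94, 2.45 and 2.23 in spleen, so the difference of the liver-type and muscle-type values was larger in every lung array. Pfkm minus Pfkp changed by -1.04 between resolving lung and spleen, by -0.66 between control lung and spleen, and by -0.38 between the lung groups. Pfkm was above the dim level in only 2 control lung arrays and 1 resolving lung array, so the sizes of changes that involve Pfkm are uncertain. The phosphofructokinase pairs share genes, so their results are not independent of each other. Pfkl minus Pfkp changed by -0.29 between the lung groups and by -0.34 between resolving lung and spleen.

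Slc2a1 minus Slc2a3 was 0.85 to 0.95 in control lung, 0.46 to 0.95 in resolving lung and 0.27 to 0.39 in spleen. Ldha minus Ldhb was 1.58, 1.66 and 1.73 in control lung, 1.84, 1.94 and 2.22 in resolving lung, and 1.49, 1.66 and 1.67 in spleen, highest in the 3 resolving lung arrays. Pfkfb3 minus Pfkfb4 between the lung groups was also among the 12, but it rests on Pfkfb4 signals below the dim level and no value is given. Such a change shows that the members of a pair moved unequally, not which of them moved.

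Further genes of glucose metabolism were examined in lists by role. Of 18 measured genes of further glycolysis and lactate handling (22 listed), 0 passed the test between the lung groups or between resolving lung and spleen. In control lung 2 passed as lower than in spleen, beside 3.49% of all genes. Galm, which interconverts the ring forms of glucose, read 7.41, 7.41 and 7.53 in control lung, 8.08, 7.86 and 7.80 in resolving lung, and 7.84, 7.98 and 7.91 in spleen. Both groups from injured mice were above control lung, with a difference of -0.46 for control lung from spleen (SE 0.09, limma adjusted p = 0.0192) and of 0.46 between the lung groups (limma adjusted p = 0.0661). Tigar, a phosphatase that lowers fructose 2,6-bisphosphate, read 4.53, 4.37 and 4.43 in control lung, 4.75, 4.64 and 4.67 in resolving lung, and 4.77, 4.78 and 4.67 in spleen, and was lower in control lung than in spleen (-0.30, SE 0.07, limma adjusted p = 0.0377). The Galm call was lost without the first or the second control lung array or the second or the third spleen array (limma adjusted p of 0.0617 to 0.0694), and the Tigar call was lost in 7 of 9 cases of 1 array left out, the exceptions being the first array of either lung group (limma adjusted p of 0.0533 to 0.124). The gene next in order of p, Pgm1 (phosphoglucomutase), differed by -0.38 in the same comparison (limma adjusted p = 0.110).

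Of 9 further pentose phosphate and ribose genes, 1 passed a test, as higher in control lung than in spleen, beside 2.67% of all genes. Between the lung groups, 0 were higher and 3 lower at an unadjusted p under 0.05, beside 7.61% and 6.39% of all genes. Pgm2l1, which makes sugar bisphosphates, read 6.70, 6.47 and 6.51 in control lung, 5.75, 6.17 and 6.25 in resolving lung, and 5.72, 5.40 and 5.55 in spleen, and was higher in control lung than in spleen by 1.00 (SE 0.14, limma adjusted p = 0.0066). The ribose phosphate kinase genes Prps2 and Prps1 differed by -0.36 and 0.31 in that comparison (limma adjusted p of 0.114 and 0.280). Of 12 further genes of pyruvate transport and oxidation, 1 passed, as lower in resolving lung than in spleen, beside 2.82% of all genes. Pdk2, another kinase of pyruvate dehydrogenase, read 4.82, 4.80 and 5.20 in resolving lung and 5.72, 5.48 and 5.71 in spleen, lower in resolving lung by -0.70 on the log2 scale (SE 0.16, limma adjusted p = 0.0413), with 5.03, 5.56 and 5.29 in control lung. That call was lost with same-numbered arrays as pairs (limma adjusted p = 0.0638) and without the third control lung array, the first or the second resolving lung array or any 1 spleen array (limma adjusted p of 0.0687 to 0.139). Dld and Pdp1, a subunit and a phosphatase of the same complex, were higher by value in resolving lung than in spleen, by 0.30 and 0.37 (limma adjusted p of 0.0617 and 0.178).

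Of 9 genes of gluconeogenesis and glycogen, 1 passed, as lower in control lung than in spleen, beside 3.49% of all genes. G6pc3, the ubiquitous glucose 6-phosphatase, read 5.74, 6.01 and 6.03 in control lung, 6.09, 6.23 and 5.96 in resolving lung, and 6.37, 6.52 and 6.45 in spleen, lower in control lung than in spleen by -0.52 on the log2 scale (SE 0.10, limma adjusted p = 0.0234). The call was lost without the first control lung array or any 1 spleen array (limma adjusted p of 0.0579 to 0.0838). Gys1 (glycogen synthase) differed by -0.37 in that comparison (limma adjusted p = 0.176). Pygl (glycogen phosphorylase of liver) read 4.63 in the first resolving lung array and 2.46 to 3.41 in the others.

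A few known regulators of glucose metabolism differed between lung and spleen. Of 27 measured (31 listed, Myc not among the measured), 2 were called higher and 2 lower in resolving lung than in spleen. The shares of all genes were 2.65% and 2.82%. In control lung 2 were called higher and 1 lower than in spleen, beside 2.67% and 3.49% of all genes. Of the 2 higher genes in each comparison, 1 was Egln3, described below. Between the lung groups 0 passed the test, beside 0.457% of all genes. There 19 of the 27 were lower and 8 higher by value in resolving lung, where 52.5% of all genes were higher. Hif1a, the oxygen-regulated subunit of HIF-1, read 9.24, 9.20 and 9.19 in control lung, 9.24, 9.18 and 9.17 in resolving lung, and 8.51, 8.67 and 8.74 in spleen. The lung groups overlapped, and every lung array was above every spleen array, by 0.56 for resolving lung (SE 0.07, limma adjusted p = 0.00532) and 0.57 for control lung (limma adjusted p = 0.00357). Trp53 (p53, a known brake on glycolysis) read 8.54, 8.72 and 8.68 in control lung, 8.27, 8.37 and 8.61 in resolving lung, and 9.09, 9.03 and 9.10 in spleen, and was lower in both lung groups than in spleen, by -0.66 for resolving lung (limma adjusted p = 0.00777) and -0.43 for control lung (limma adjusted p = 0.0351). Rptor, the raptor subunit of mTORC1, was lower in resolving lung than in spleen by -0.43 (SE 0.09, limma adjusted p = 0.0333), with 7.12, 6.85 and 7.07 against 7.56, 7.40 and 7.35. The Rptor call was kept without the first resolving lung array and lost without any other 1 array (limma adjusted p of 0.0505 to 0.115). The Trp53 call of control lung was lost without any 1 control lung or spleen array or the second resolving lung array (limma adjusted p of 0.0551 to 0.113), while those of resolving lung and of Hif1a were kept in 18 of 18 settings.

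Some known hypoxia targets outside glycolysis were higher in lung than in spleen. Of 14 measured (16 listed), 4 passed as higher in resolving lung than in spleen, beside 2.65% of all genes. In control lung 3 were higher than in spleen, beside 2.67%, and 1 was lower in resolving than in control lung, beside 0.324%. By value, 10, 12 and 5 of the 14 were higher in these comparisons, with medians of 0.16, 0.26 and -0.12. Ddit4 read 7.20, 6.82 and 7.52 in control lung, 8.16, 7.67 and 7.23 in resolving lung, and 7.97, 7.74 and 7.64 in spleen. Every control lung array of Ddit4 lay below every spleen array. Epithelial markers were highest in control lung and lowest in spleen, with means of 6.99, 5.94 and 5.91 in control lung, 5.26, 4.58 and 4.64 in resolving lung, and 3.12, 3.46 and 3.87 in spleen, and their part in the result was not tested. Mxi1, a Myc antagonist, read 7.91, 7.49 and 7.90 in control lung, 6.86, 6.95 and 6.88 in resolving lung, and 6.17, 6.25 and 6.07 in spleen. Its 3 groups did not overlap, and Mxi1 passed the test in all 3 comparisons, with 1.60 for control lung over spleen (limma adjusted p = 4.43e-04), 0.73 for resolving lung over spleen (limma adjusted p = 0.0112) and -0.87 for resolving against control lung (limma adjusted p = 0.0339). The last call was kept without the second control lung array or the third resolving lung array and lost without any other 1 array (limma adjusted p of 0.0574 to 0.0961) and with the 6 lung arrays alone (limma adjusted p = 0.169). Egln3, an oxygen-sensing prolyl hydroxylase also listed as a regulator, read 7.56, 7.04 and 7.29 in control lung, 6.98, 6.63 and 6.58 in resolving lung, and 5.80, 5.75 and 5.31 in spleen, a difference of 1.11 for resolving lung over spleen (SE 0.18, limma adjusted p = 0.0123) and of 1.67 for control lung (limma adjusted p = 0.00183).

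Bhlhe40, a repressor known in tissue lymphocytes, read 9.39, 9.26 and 9.15 in control lung, 9.24, 9.21 and 8.46 in resolving lung, and 7.56, 7.97 and 7.54 in spleen. It was higher than in spleen by 1.28 in resolving lung (SE 0.21, limma adjusted p = 0.0139) and by 1.58 in control lung (limma adjusted p = 0.00508), the former not without the first or the third spleen array (limma adjusted p of 0.0591 and 0.0565). Ero1a, an oxidase of the endoplasmic reticulum, was higher by 0.59 in that comparison (SE 0.12, limma adjusted p = 0.0288), with 8.14, 7.94 and 7.70 against 7.29, 7.41 and 7.31. The Ero1a call was lost with same-numbered arrays as pairs (limma adjusted p = 0.0571) and without the first or the second resolving lung array or any 1 spleen array (limma adjusted p of 0.0537 to 0.103). Against the same spleen arrays, the glycolytic members Pgk1 and Ldha differed by 0.53 and 0.23 without passing the test, and Slc2a1 by 0.0054.

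Producers and users of NADPH were higher by value in resolving lung than in control lung for 13 of 15 measured genes (16 listed), where 52.5% of all genes were, with a median of 0.43, and 0 passed the test. The list includes the phagocyte oxidase genes Cybb, Cyba and Ncf1. Its mean was 6.87 in the first resolving lung array and 6.58 and 6.47 in the others of the group, against 6.12 to 6.28 in control lung. Macrophage markers were highest in that same array, with a median difference of 0.82 between the lung groups, and their part in the result was not tested. Without that array the list's median was 0.31, with 13 of 15 higher. Idh1, the cytosolic isocitrate dehydrogenase that makes NADPH, read 5.47, 5.38 and 5.49 in control lung, 5.90, 5.96 and 6.21 in resolving lung, and 5.70, 5.45 and 5.57 in spleen. Its resolving lung arrays were above all others, by 0.58 over control lung (SE 0.10, limma adjusted p = 0.0569) and by 0.45 over spleen, which passed (limma adjusted p = 0.0386). Txnrd1, thioredoxin reductase, which consumes NADPH, read 7.24, 7.15 and 7.37 in control lung, 7.86, 7.66 and 7.52 in resolving lung, and 7.23, 7.32 and 7.20 in spleen. Resolving lung was higher than spleen by 0.43 (SE 0.10, limma adjusted p = 0.0433) and than control lung by 0.43 (limma adjusted p = 0.110). With same-numbered arrays as pairs, the Idh1 and Txnrd1 calls against spleen were lost (limma adjusted p of 0.0521 and 0.0827). Each held in only 1 of 9 cases of 1 array left out, Idh1 without the first and Txnrd1 without the third resolving lung array, and reached a limma adjusted p of 0.0597 to 0.115 and of 0.0534 to 0.142 in the others.

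Hmox1, heme oxygenase, read 4.54, 4.14 and 4.24 in control lung, 6.18, 5.81 and 5.81 in resolving lung, and 7.81, 6.73 and 6.54 in spleen. The 3 groups did not overlap. It was lower in control lung than in spleen by -2.72 (SE 0.30, limma adjusted p = 0.00208) and differed by 1.63 between the lung groups (limma adjusted p = 0.0661). Erythroid transcripts were also highest in spleen. Macrophage markers had means of 4.80, 4.31 and 3.68 in control lung, 6.54, 4.30 and 4.40 in resolving lung, and 5.08, 4.26 and 4.28 in spleen. The part of either in the Hmox1 values was not tested.

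**Figure D5:**
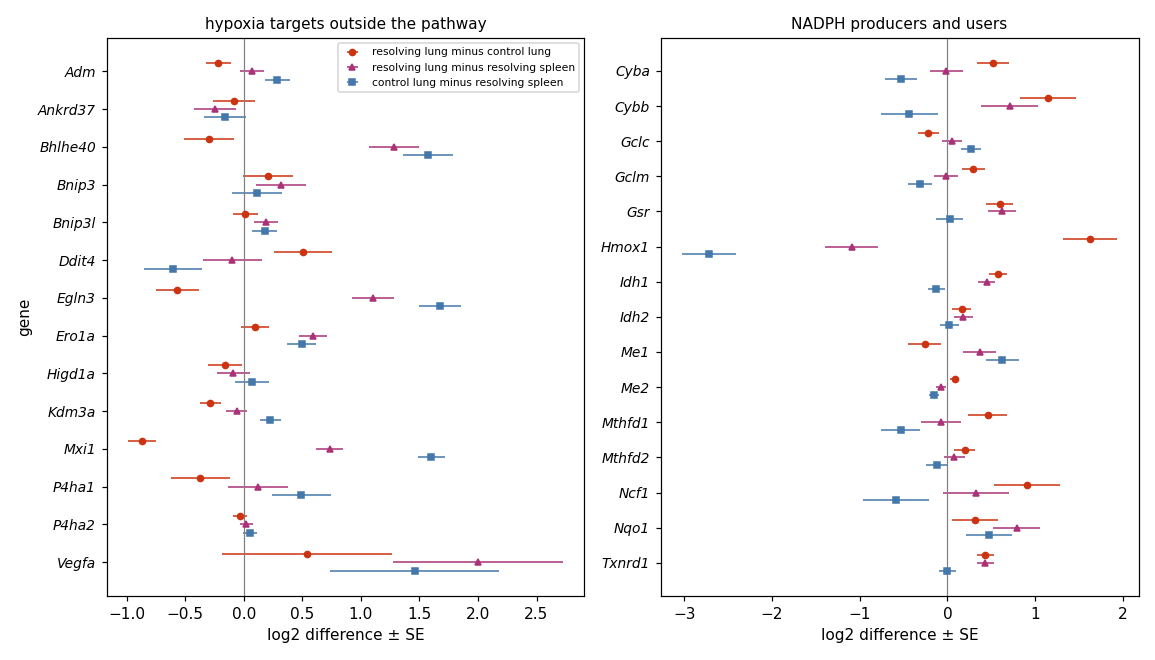
Fitted log2 difference with its standard error in the 3 comparisons (colours and marker shapes) for 14 hypoxia targets outside glycolysis (left) and 15 NADPH producers and users (right). Bhlhe40, Egln3 and Mxi1 lie well above 0 in both comparisons with spleen, and 13 of the 15 NADPH genes lie above 0 between the lung groups (circles).

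Cell cycle genes, markers of dividing cells, also differed between lung and spleen. The 12 measured had means of 6.77, 6.93 and 7.16 in control lung, 7.67, 7.36 and 7.39 in resolving lung, and 5.70, 6.19 and 6.21 in spleen. All 12 passed the test as higher in resolving lung than in spleen, beside 2.65% of all genes. In control lung 8 passed as higher than in spleen, beside 2.67%. Between the lung groups 0 passed, and all 12 were higher by value in resolving lung. Their part in the values of the glycolytic and pentose phosphate genes was not tested.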

How the data were processed

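The deposited table holds 1 log2 value per probe set and array for 9 Affymetrix Mouse Gene 2.1 ST arrays, made by the authors with Affymetrix Expression Console, RMA and Partek, per the submitters' processing notes (versions not given in the sources used here). RMA subtracts background and equalises the distributions of the arrays, so that a shift shared by all genes is removed, and it compresses differences at low signal. The values need no count depth, and the number of arrays limits the precision.

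Of 31351 probe sets, 21055 were named through RefSeq by transcript accession, giving 21020 genes. The other 32.8% stayed unnamed and out of the tests. For a gene with several probe sets the one with the highest mean was kept, which touched none of the members. limma 3.58.1 in R 4.3.3 fitted all 9 arrays in 1 model with 6 residual and 2.29 prior degrees of freedom, and p-values were adjusted by Benjamini-Hochberg over all 21020 genes. The procedure was tested on simulated data with independent noise for each gene, so that test did not cover effects shared by the genes of an array. Isoform pairs were tested by exact permutation over the 20 arrangements of 3 against 3 arrays.

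The members and the gene lists were chosen with earlier results of these data known. Values are given in every array for members past the threshold, for the 5 with the smallest p in each comparison and for isoform pairs at the smallest permutation p. Of the other pathway lists, called genes and the 3 with the smallest p are named. Cell type lists serve as markers only, and 1 listed marker is not reported here. Beyond this rule, Hk1, Hk2, Hk3, Pgls, Taldo1, Rpia, Tkt, Pdha1 and the marker genes were described after their values were seen.

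Array titles number replicates 1 to 3 in each group, and the descriptions of the second and the third spleen arrays carry the same number, so that pairing by number is uncertain. Deviations from the group means correlated between same-numbered resolving lung and spleen arrays (r = 0.17, 0.13 and 0.16 over genes). Correlations of other group pairs ranged from -0.064 to 0.29. This hint of pairing comes from the data and not from the labels. The main fit did not use it, and same-numbered arrays were treated as pairs only in the replicate block, an alternative setting. Alternatives tried were a replicate block, a variance trend, array weights, quantile normalization, median centring, a filter on dim genes, all probe sets, separate fits of 2 groups, and leaving out arrays.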

Additional observations from a re-analysis of the deposited data

How the results depend on the processing

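The 24 single-gene differences at an unadjusted p under 0.05 in the main fit were followed under 18 alternatives each (432 in all). Of the 432, 0 changed direction, 396 stayed on their side of the threshold, 18 lost the call and 18 gained it. Several alternatives left the estimate itself as it was, such as the block, the variance trend and leaving out an array of a group outside the comparison. These could not change a direction. The replicate block, which treats same-numbered arrays as pairs, left 2 members lower in resolving lung than in spleen and 1 (Eno3) in control lung, where Pfkm was lost (limma adjusted p = 0.0689). It gave 15 genes in all between the lung groups in place of 96, and changed no other member's call. Of other pathway genes, the block also lost Mxi1 between the lung groups (limma adjusted p = 0.0789) and Galm and Tigar between control lung and spleen (limma adjusted p of 0.0522 and 0.0577), beside Ero1a, Idh1, Pdk2 and Txnrd1 between resolving lung and spleen. The number of genes called between the lung groups was also 235 without dim genes, 63 with array weights, 0 with the 6 lung arrays alone (limma, 2344 at an unadjusted p under 0.05), 15 without the first array of both lung groups, and 4 to 212 with 1 array left out (lowest without the second spleen array, highest without the third resolving lung array). Between resolving lung and spleen it was 704 in place of 1150 with the 6 arrays alone and 508 to 1131 with 1 array left out, and between control lung and spleen 681 to 1793 in place of 1295. Members higher in resolving than in control lung numbered 1 in place of 0 with median centring or without dim genes (Pgd), and 0 to 1 with 1 array left out. Members higher in resolving lung than in spleen numbered 1 without dim genes (Pgk1), and 0 to 3 with 1 array left out. Members lower in resolving lung than in spleen numbered 1 with the 6 arrays alone, and 0 to 3 with 1 array left out (0 without the first or the third spleen array). Members lower in control lung than in spleen numbered 1 with all probe sets or a variance trend, 4 with the 6 arrays alone (Eno3, Pdk1, Pfkm and Slc2a3), and 1 to 4 with 1 array left out. Of 21 calls of other pathway genes, 10 were kept in all 18 alternatives and 11 were lost in 1 or more. Each of the 11 was lost with some single array left out. Again 0 changed direction, which the alternatives with an unchanged estimate could not show. Values under the dim level, as for Pgam1 and most of Hk3 and Pfkfb4, cannot show a difference.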
